A study of Mus musculus with 6 samples.

Results

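The 4 myogenic regulatory factors (MRFs) *Myod1*, *Myf5*, *Myog*, and *Myf6* and the MEF2 genes *Mef2a*, *Mef2c*, and *Mef2d* were followed in C2C12 cells carrying a short or an expanded CUG repeat. These 7 genes were taken by name from the 55421 genes of the count table, and all 7 passed the filter on low counts together with the other genes of the 19005 that were tested. C2C12 is a mouse myoblast line that withdraws from the cell cycle and fuses into myotubes once serum is reduced. Both groups carried a stably transfected *GFP* plasmid selected with G418, with 5 CTG repeats behind *GFP* in the normal group (CUG5) and 200 in the DM1 group (CUG200), a model of myotonic dystrophy type 1. Total RNA was sequenced at differentiation day 4 in medium with horse serum and insulin, with 3 libraries in each group. The libraries of a group are described as biological replicates, and whether they came from separate transfections, clones, or cultures is not given in the sources used here, so the p-values measure the spread between these libraries.

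MRFs are basic helix-loop-helix (bHLH) proteins that pair with E proteins and bind the E-box, a short DNA motif in muscle genes. MYF5 and MYOD1 commit cells to the muscle lineage, MYOG drives the step from dividing myoblast to myotube, and MYF6, also called MRF4, acts mainly in late differentiation and in mature fibers. MEF2 proteins are MADS-box factors that bind an AT-rich motif and activate muscle genes together with the MRFs, and in differentiating muscle cells *Myog* itself is a known target of both families.

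At day 4, 3 of the 7 genes were lower in the DM1 group in edgeR's quasi-likelihood test, with p-values adjusted over all genes by the Benjamini-Hochberg method, and none was higher. *Myog* fell by 0.65 on the log2 scale, *Myod1* fell by 0.52, and *Mef2c* fell by 1.01, while *Myf5*, *Myf6*, *Mef2a*, and *Mef2d* did not pass. At an adjusted p-value under 0.05, 8.73% of all tested genes were lower and 7.13% were higher. No member was higher at an unadjusted p-value under 0.05 either, and DESeq2 also called 0 higher and 3 lower. With 1 library left out, the number lower was between 1 and 4, and it was 1, *Myog*, without DM1 library 2. *Mef2c* was the only member past a log2 fold change of −1 as well, a cutoff that 0.816% of all tested genes passed in this direction. Its log2 fold change of −1.01 was just past that cutoff and no longer past it without normal library 3 (−0.62), without both libraries numbered 3 (−0.66), without DM1 library 1 or 2 (−0.98 each), with transcript length as an offset (−0.88), under the replicate block (−0.94), or in the 3 limma fits on TPM (−0.98 to −0.85). The median log2 fold change of the 7 genes was −0.52, beside 0.02 over all tested genes.

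The coding sequences show how alike the members of each family are. The most similar 30-base coding windows are printed 5′ to 3′ on the coding strand, with the bases that all members of the family share in capitals (GENCODE M21, GRCm38). The MRF windows shared 24 of 30 bases and lay in exon 1 of each gene.
Myod1: AACCCgAACCAGcGgCTaCCcAAgGTGGAG
Myf5: AACCCtAACCAGaGaCTcCCcAAgGTGGAG
Myog: AACCCcAACCAGcGgCTgCCtAAaGTGGAG
Myf6: AACCCcAACCAGaGaCTgCCcAAgGTGGAG
They stand at chr7:46377087-46377116 on the plus strand, chr10:107485566-107485595 on the minus strand, chr1:134290386-134290415 on the plus strand, and chr10:107494309-107494338 on the minus strand. The MEF2 windows shared 26 of 30 bases.
Mef2a: AAGCTGTTtCAGTAcGCtAGCACtGACATG
Mef2c: AAGCTGTTcCAGTAcGCcAGCACtGACATG
Mef2d: AAGCTGTTcCAGTAtGCcAGCACcGACATG
They stand at chr7:67295447-67295476 on the minus strand in exon 4, chr13:83592880-83592909 on the plus strand in exon 4, and chr3:88156424-88156453 on the plus strand in exon 3. The longest exact run that transcripts of any 2 members of a family shared was between 12 and 28 bases. The read length is not given in the sources used here, and whether reads were shared between members was not tested.

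Per transcript length, *Myog* was the most abundant of the 7 genes in both groups. TPM, a share of transcripts deposited by the authors, divides out transcript length and therefore allows levels of different genes to be compared. In the normal group, *Myog* stood at 361 ± 21.7 TPM (SD, n = 3), followed by *Mef2d* at 94.0 ± 4.40, *Mef2a* at 87.9 ± 13.2, *Myod1* at 55.7 ± 2.97, *Myf5* at 50.9 ± 0.755, *Mef2c* at 40.8 ± 6.03, and *Myf6* at 1.48 ± 0.413 TPM. In that order only the ranges of *Mef2d* and *Mef2a* overlapped. In the DM1 group, *Myog* stood at 211 ± 13.3 TPM, followed by *Mef2d* at 82.5 ± 25.4, *Mef2a* at 62.7 ± 8.16, *Myf5* at 39.1 ± 5.27, *Myod1* at 36.0 ± 8.24, *Mef2c* at 20.7 ± 3.37, and *Myf6* at 0.900 ± 0.370 TPM. *Myod1* and *Myf5* thus stood in the opposite order in the DM1 group, where their ranges overlapped, as did those of *Mef2d* and *Mef2a*.

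**Figure D1:**
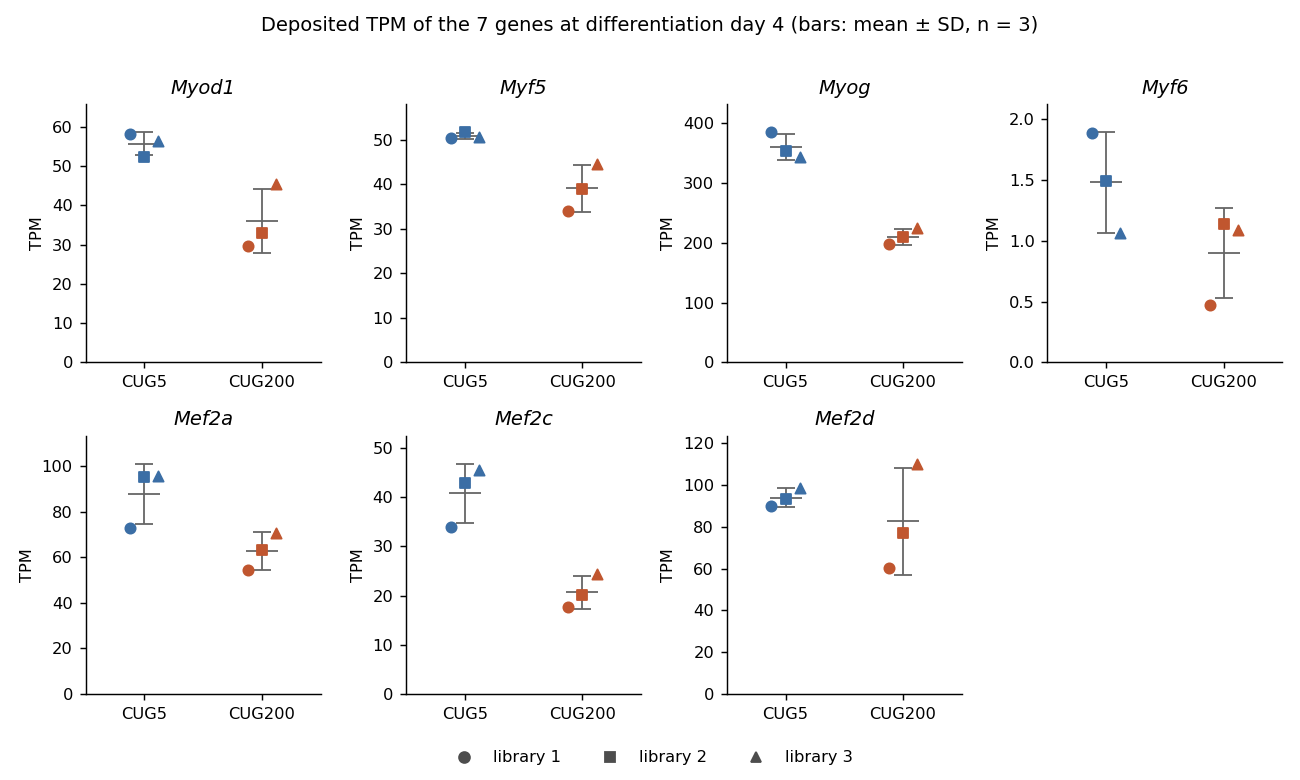
Deposited TPM (vertical axis) of the 7 genes in each library of the normal (CUG5) and DM1 (CUG200) groups, with marker shapes for the library numbers and bars for the mean ± SD of 3 libraries. The 3 CUG200 libraries lie below the 3 CUG5 libraries for *Myod1*, *Myf5*, *Myog*, *Mef2a*, and *Mef2c*, and the groups overlap for *Myf6* and *Mef2d*.

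Among the MRFs, the commitment factor *Myod1* (ENSMUSG00000009471, chr7:46376474-46379099, plus strand, 1 annotated transcript) was read by 5096, 3644, and 4551 counts in normal libraries 1 to 3 and by 2911, 2908, and 3264 counts in DM1 libraries 1 to 3. After TMM scaling these were 60.6, 59.3, and 65.1 CPM (counts scaled to the size of the library) against 39.2, 40.8, and 49.1 CPM. DM1 library 3 was the nearest to the normal group, and the groups did not overlap. *Myod1* was lower in the DM1 group by 0.52 on the log2 scale (log2 fold change −0.52, SE 0.103, 95% interval −0.75 to −0.29, adjusted p = 0.0129, edgeR's quasi-likelihood test). The call did not hold without normal library 3 (log2 fold change −0.47, adjusted p = 0.0685, edgeR) or without DM1 library 2 (−0.48, adjusted p = 0.0628).

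*Myf5*, the other commitment factor (ENSMUSG00000000435, chr10:107482908-107486134, minus strand, 1 transcript), had 4932, 4027, and 4565 counts in the normal group and 3726, 3849, and 3584 counts in the DM1 group. On the CPM scale these were 58.7, 65.6, and 65.3 against 50.1, 54.0, and 53.9. The groups did not overlap, but the difference was small. Its log2 fold change of −0.26 (SE 0.0826, 95% interval −0.45 to −0.07) had an unadjusted p = 0.0117 and did not pass after adjustment (adjusted p = 0.0635, edgeR's quasi-likelihood test). Over 21 alternative settings its adjusted p stayed between 0.0518 and 0.236, so that none made the call.

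*Myog*, the differentiation factor (ENSMUSG00000026459, chr1:134289989-134292548, plus strand, 1 transcript), had 27131, 19799, and 22279 counts in the normal group and 15604, 14806, and 12986 counts in the DM1 group. Scaled to CPM, the normal libraries lay close together at 323, 322, and 319, and the DM1 libraries lay at 209.9, 208, and 195. The gap between the groups was far wider than the spread within either. *Myog* was 36.4% lower in the DM1 group (log2 fold change −0.65, SE 0.0767, 95% interval −0.83 to −0.48, adjusted p = 0.00227, edgeR's quasi-likelihood test). It passed under all 21 alternative settings, with log2 fold changes between −0.78 and −0.58.

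*Myf6*, the late factor (ENSMUSG00000035923, chr10:107492853-107494737, minus strand, 1 transcript), was read by only 113, 71, and 59 counts in the normal group and 32, 68, and 54 counts in the DM1 group. These were 1.34, 1.16, and 0.84 CPM against 0.43, 0.95, and 0.81 CPM. DM1 library 1 was the lowest and the groups overlapped. The log2 fold change of −0.61 did not pass (SE 0.359, 95% interval −1.43 to 0.21, adjusted p = 0.296, edgeR's quasi-likelihood test). With 1 library left out it was between −0.85 and −0.32, the latter without DM1 library 1. The interval includes both 0 and the log2 fold change of −0.65 seen for *Myog*.

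*Mef2a* (ENSMUSG00000030557, chr7:67231163-67372858, minus strand, 12 transcripts of 625 to 5538 bases) encodes a MEF2 protein found in many tissues and abundant in muscle. It had 14427, 17243, and 20340 counts in the normal group and 13735, 13589, and 13172 counts in the DM1 group, or 172, 281, and 291 CPM against 185, 191, and 198 CPM. Normal library 1 lay below all DM1 libraries, and the groups overlapped in CPM. The log2 fold change of −0.37 did not pass (SE 0.184, 95% interval −0.80 to 0.05, adjusted p = 0.217, edgeR's quasi-likelihood test). It passed only without normal library 1 (−0.58, adjusted p = 0.0199, edgeR). In TPM, normal library 1 was again the lowest of its group, yet the values of 72.7, 95.4, and 95.7 in the normal group did not overlap the 54.3, 63.4, and 70.5 of the DM1 group. The deposited TPM carry no TMM scaling. In limma on log2(TPM + 0.1) with each library centred on its median, the log2 fold change was −0.36 and did not pass (adjusted p = 0.153). *Mef2a* shares exonic bases with *Lysmd4* on the opposite strand, which had between 854 and 1228 counts.

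*Mef2c* (ENSMUSG00000005583, chr13:83504034-83667080, plus strand, 31 transcripts of 332 to 6277 bases) encodes the MEF2 protein best known from developing heart and skeletal muscle. It was read by 4912, 4146, and 8290 counts in the normal group and by 2969, 2787, and 2831 counts in the DM1 group. On the CPM scale, the DM1 libraries lay together at 39.9, 39.1, and 42.6, while the normal libraries were spread over 58.4, 67.5, and 119, with library 3 standing apart. The groups did not overlap. The log2 fold change of *Mef2c* was −1.01, lower in the DM1 group (SE 0.262, 95% interval −1.64 to −0.38, adjusted p = 0.0471, edgeR's quasi-likelihood test). Without normal library 3 the log2 fold change was −0.62 and still passed (adjusted p = 0.0238, edgeR). The call did not hold without normal library 2 (−1.13, adjusted p = 0.0680) or without DM1 library 1, 2, or 3 (−0.98, −0.98, and −1.05, adjusted p = 0.186, 0.134, and 0.152).

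The per-length values of *Mef2c* were more even than its counts in the normal group. In the DM1 group they were less even, at 20.7 ± 3.37 TPM beside 40.5 ± 1.81 CPM. So were those of *Myod1* and *Myf5*, which have 1 annotated transcript each. *Myod1* stood at 36.0 ± 8.24 TPM beside 43.0 ± 5.32 CPM in that group, and *Myf5* at 39.1 ± 5.27 TPM beside 52.7 ± 2.23 CPM. In TPM, *Mef2c* measured 34.0, 42.9, and 45.5 in normal libraries 1 to 3 against 17.6, 20.2, and 24.3 in DM1 libraries 1 to 3, and normal library 3 no longer stood apart. Count and TPM, scaled on genes with 1 annotated transcript, together imply the mean length of the *Mef2c* transcripts that StringTie assigned in each library. This length was 3065, 2586, and 4197 bases in the normal group and 3198, 2911, and 3009 bases in the DM1 group. Normal library 3, with the high count, was also the library with the longest mean transcript. With that length as an offset, an alternative added after the data were seen, the log2 fold change was −0.88 (adjusted p = 0.00752, edgeR's quasi-likelihood test). Which of the 31 transcripts made up the longer mean in normal library 3 was not analysed here. Whether this mean and the high count came from the cells or from StringTie's assignment of reads to transcripts was not tested.

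**Figure D2:**
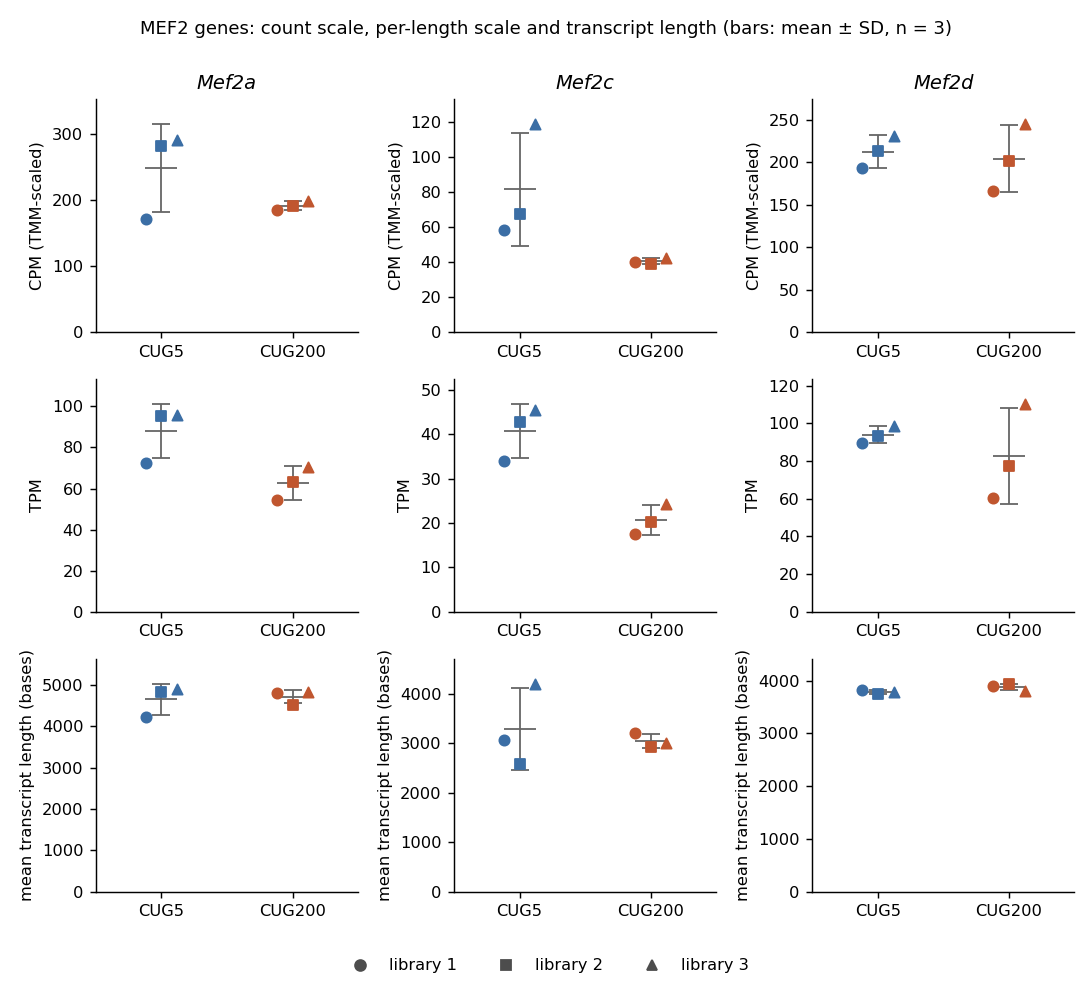
Rows show TMM-scaled CPM, deposited TPM, and implied mean transcript length in bases, and columns show *Mef2a*, *Mef2c*, and *Mef2d*, with marker shapes for library numbers and bars for the mean ± SD of 3 libraries. For *Mef2c*, normal (CUG5) library 3 stands at 119 CPM and at 4197 bases, above the other libraries in both, but at 45.5 TPM it lies beside library 2 at 42.9.

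The RT-qPCR primers of the study for *Mef2c* are shown because they read the 3′ end of some of these transcripts and no others. The forward primer matches the plus strand at chr13:83666384-83666403 and the reverse primer the minus strand at chr13:83666532-83666551 (GRCm38), both in exon 12 within the 3′ untranslated region.
Mef2c forward: cggtgtcgtcagttgtatgg
Mef2c reverse: tgcagtagatatgcggcttg
Both primers matched 3 of the 31 annotated transcripts, with a product of 168 bases. The counts and TPM given here sum over all transcripts of the gene. By RT-qPCR during differentiation, the study reported *Mef2c* significantly lower in the DM1 group, as well as *Myod1*, *Myog*, and *Myf6*.

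*Mef2d* (ENSMUSG00000001419, chr3:88142372-88172086, plus strand, 7 transcripts of 427 to 5401 bases) encodes a MEF2 protein with a muscle-specific splice form. It had 16215, 13086, and 16173 counts in the normal group and 12380, 14362, and 16274 counts in the DM1 group, or 193, 213, and 231 CPM against 167, 202, and 245 CPM. DM1 library 3 was the highest of all 6 libraries, DM1 library 1 was the lowest, and the groups overlapped. The log2 fold change of −0.06 did not pass (SE 0.140, 95% interval −0.38 to 0.26, adjusted p = 0.835, edgeR's quasi-likelihood test). The interval leaves room for a difference of up to 0.38 in the lower direction. *Mef2d* shares exonic bases with the antisense gene *1700113A16Rik* on the opposite strand. That gene had 53, 41, and 18 counts in the normal group and 70, 108, and 79 counts in the DM1 group. The fourth family member, *Mef2b*, was read by 8, 0, and 6 counts in the normal group and 4, 13, and 0 counts in the DM1 group and was too low to be tested.

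**Figure D3:**
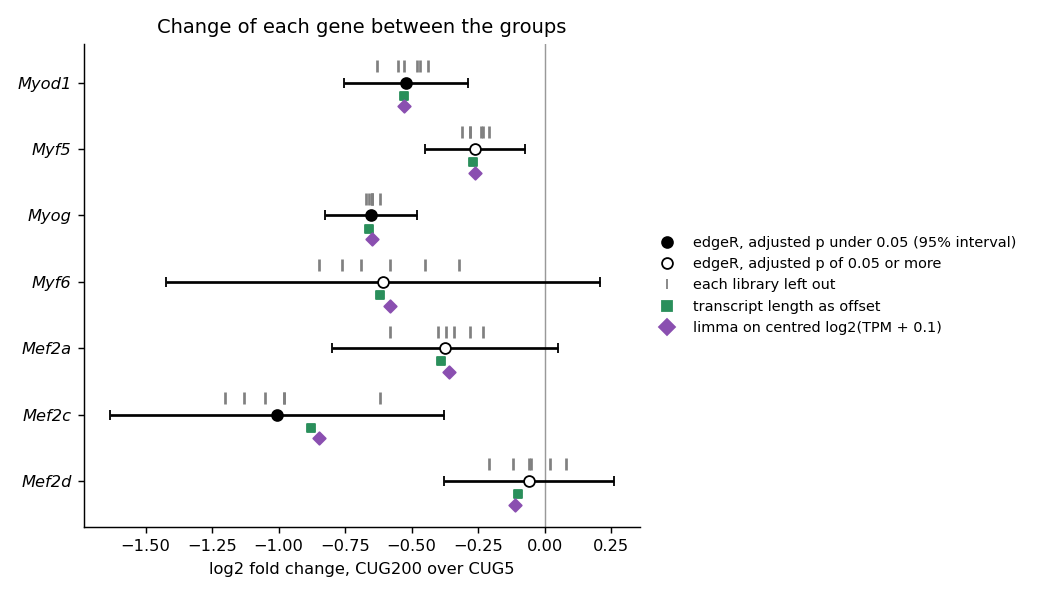
Log2 fold change of each gene in the DM1 (CUG200) over the normal (CUG5) group, as edgeR estimates with 95% intervals (filled where the adjusted p-value was under 0.05), ticks for the fits that left out 1 library each, and symbols for fits with transcript length as an offset and for limma on centred log2(TPM + 0.1). *Myog* keeps to −0.67 to −0.62 over the ticks, while *Mef2c* ranges from −1.20 to −0.62 and *Mef2d* lies on both sides of 0.

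By the raw overlap of the libraries, 4 of the 7 genes (*Myod1*, *Myf5*, *Myog*, and *Mef2c*) had all 3 DM1 libraries below all 3 normal libraries in CPM, as did 19.3% of all tested genes. In the deposited TPM, which carry no TMM scaling, it was 5 of 7, with *Mef2a* added, beside 20.6% of all tested genes. The TPM scale placed the median of all tested genes 0.11 lower on the log2 scale than the CPM scale did. Limma on log2(TPM + 0.1) called 434 genes higher and 850 lower over the whole table, where edgeR on counts called 1356 higher and 1660 lower. Under limma on the TPM, the number of members called lower was again 3.

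The make-up of each family was compared within libraries, since a ratio of genes from the same library does not change with the scaling. The summed TPM given beside these ratios for both families do change with the scaling, and they carry no TMM scaling. Summed over the 4 MRFs, the level was 496, 459.9, and 452 TPM in the normal group and 262, 282, and 315 TPM in the DM1 group, without overlap. *Myog* made up 77.7%, 77.0%, and 76.1% of that sum in the normal group and 75.6%, 74.1%, and 71.2% in the DM1 group. Its share was thus lower in every DM1 library than in any normal library, by a few percentage points. The ratio of *Myog* to *Myf5* was 7.67, 6.85, and 6.80 in the normal group and 5.84, 5.36, and 5.05 in the DM1 group, also without overlap. The ratios of *Myog* to *Myod1* overlapped, at 6.63, 6.77, and 6.09 against 6.67, 6.34, and 4.95.

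In the MEF2 family, the sum of *Mef2a*, *Mef2c*, and *Mef2d* overlapped between the groups, at 197, 232, and 239.9 TPM against 132, 161, and 205 TPM. *Mef2c* supplied 17.3%, 18.5%, and 19.0% of it in the normal group and 13.3%, 12.6%, and 11.8% in the DM1 group. The share of *Mef2c* was therefore lower in all 3 DM1 libraries, and its ratio to *Mef2a* was close to constant within each group, at 0.468, 0.450, and 0.476 in the normal group and 0.324, 0.319, and 0.344 in the DM1 group. These shares and ratios were chosen after their values were seen and are given as a description, without a test.

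**Figure D4:**
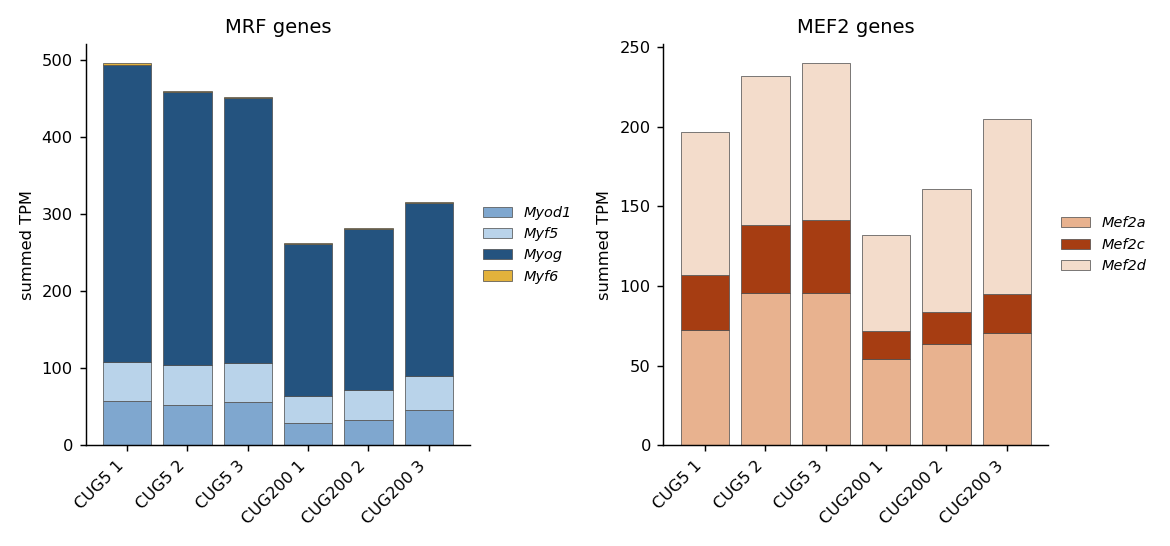
Stacked TPM of the MRF genes (left) and the MEF2 genes (right) in each of the 6 libraries. The MRF sums of the normal (CUG5) libraries, at 452 to 496 TPM, stand above those of the DM1 (CUG200) libraries, at 262 to 315 TPM, while the MEF2 sums overlap and the *Mef2c* segment is thinner in the DM1 group.

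The promoter of *Myog* is shown because *Myog* had the steadiest difference of the 7 genes with 1 library left out. *Myog* is also known to respond to both families. In the RefSeq window from 250 bases before to 50 bases after the start site (GRCm38.p6, plus strand), the general E-box letters CANNTG occurred 2 times and the MEF2-type letters CTANNNNTA occurred 1 time, searched on both strands. The matches are in capitals and do not overlap each other.
Myog MEF2-type: gtggcgttggCTATATTTAtctctgggttc
Myog proximal E-box: aatggcacccagCAGTTGgtgtgaggggct
Myog distal E-box: gggaaggggaatCACATGtaatccactgga
They stand at chr1:134289930-134289959, chr1:134289980-134290009, and chr1:134289854-134289883, with the first base of the match 64, 12, and 138 bases before the RefSeq start site. The GENCODE start of *Myog* given above lies upstream of the RefSeq start, and the proximal E-box falls within the GENCODE span of the gene. Of 32851 promoter windows of this length, 72.3% held CANNTG and 6913 (21%) held CTANNNNTA. Among the other windows found, that of *Mef2d* held neither motif, those of *Myf5* and *Mef2a* held CTANNNNTA and no CANNTG, 2 of the 3 windows of *Mef2c* held CANNTG, and 1 of these also held CTANNNNTA. *Myod1* and *Myf6* had no window in the table used.

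The genes around the 7 were then read from 6 lists, which were written with earlier results of these data known. Their counts are to be read against the 7.13% of all tested genes that were higher and the 8.73% that were lower. Among the bHLH partners and inhibitors of the MRFs, 18 were tested, of which 4 rose, 5 fell, and 9 did not pass, with a median log2 fold change of −0.10. *Hey1*, a Notch-responsive repressor, stood at 35.8, 38.9, and 38.5 CPM in the normal group and at 10.5, 6.7, and 5.3 CPM in the DM1 group. This was the largest fold change of the list, and *Hey1* fell by 2.33 on the log2 scale (SE 0.235, adjusted p = 0.00198, edgeR's quasi-likelihood test). The related repressor *Hes1* fell by 0.67 (adjusted p = 0.0143), the E protein gene *Tcf12*, a dimer partner of the MRFs, fell by 0.45 (adjusted p = 0.0146), and *Bhlhe41* fell by 0.38 (adjusted p = 0.0151). *Snai1*, a zinc finger repressor that binds E-boxes, rose from 20.4 ± 0.961 to 36.5 ± 4.53 CPM (log2 fold change 0.84, adjusted p = 0.00319, edgeR), and the repressor *Zeb1* (0.38), the dimerization inhibitor *Id2* (0.41), and *Bhlhe40* (0.41) also rose. Chosen after their values were seen, *Snai2* was the fifth gene to fall (by 0.36), and the other E protein genes *Tcf3* and *Tcf4* had log2 fold changes of 0.05 and 0.04 that did not pass. With 1 library left out, between 1 and 4 genes of this list rose and between 1 and 5 fell. The lowest counts of 1 higher came without normal library 1, 2, or 3 or DM1 library 2, and those of 1 lower came without normal library 2 or 3, while 2 fell without DM1 library 2. Limma on log2(TPM + 1) and on log2(TPM + 0.1) each called 1 higher and 2 lower, limma on centred log2(TPM + 0.1) called 2 higher and 4 lower, and without both libraries numbered 3 there were 2 higher and 2 lower.

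Of 27 tested co-regulators of MEF2, 7 fell, 2 rose, and 18 did not pass, with a median of −0.17. The 2 of 27 that rose are a share near the 7.13% of all tested genes, and 8.73% of all tested genes were lower. *Smyd1*, a muscle methyltransferase, stood at 125 ± 2.39 CPM in the normal group and 66.8 ± 4.06 CPM in the DM1 group (log2 fold change −0.90, SE 0.0794, adjusted p = 0.00104, edgeR's quasi-likelihood test, n = 3). *Vgll2*, a muscle cofactor of TEAD factors, fell by 0.88 (adjusted p = 0.00253), the kinase *Sik1*, which phosphorylates class IIa histone deacetylases, fell by 0.53 (adjusted p = 0.00617), and the coactivator *Ppargc1a* fell by 0.78 (adjusted p = 0.00816). The upstream kinase *Map2k6* (log2 fold change 0.85, adjusted p = 0.0197) and the histone deacetylase *Hdac7*, a MEF2 repressor (0.38, adjusted p = 0.0327), rose. *Hdac9*, another class IIa histone deacetylase that represses MEF2, was named after its values were seen and fell by 0.66 (adjusted p = 0.0106, edgeR). With 1 library left out the list had between 4 and 10 genes lower and between 0 and 3 higher. It had 4 lower without normal library 3, and 0 higher without normal library 2 or 3 or DM1 library 2, and 1 higher without normal library 1. In the 3 limma fits on TPM and without both libraries numbered 3 the list had 4 lower and 0 higher. With transcript length as an offset 0 were higher, and with library totals alone or under the replicate block, where 7 were lower, 1 was higher.

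Of 21 tested regulators that act upstream of the MRFs, 4 fell, none rose, and 17 did not pass, with a median of −0.21, beside 8.73% lower and 7.13% higher over all tested genes. One gene was higher at an unadjusted p-value under 0.05, and DESeq2 called 0 higher. *Eya1*, a transcriptional coactivator, fell from 14.4 ± 1.59 to 8.41 ± 1.32 CPM (log2 fold change −0.78, SE 0.148, adjusted p = 0.0114, edgeR's quasi-likelihood test, n = 3). The TEAD factor gene *Tead4* fell by 0.44 (adjusted p = 0.0170), and *Srf*, which encodes serum response factor, fell by 0.47 (adjusted p = 0.0462). With 1 library left out the number lower was between 1 and 7. It was 1 without normal library 3 or DM1 library 2, 2 without normal library 1, and 7 without DM1 library 3, and 1 gene was higher without DM1 library 1. Limma called 1 lower on log2(TPM + 1) and on log2(TPM + 0.1), and 1 gene was higher with the length and GC trend removed and 2 with that trend removed under the replicate block.

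The known targets of both families are given beside the 8.73% of all tested genes that were lower. Of 36 MRF targets, 23 fell, 1 rose, and 12 did not pass, with a median log2 fold change of −0.51. *Myh8*, the perinatal myosin heavy chain, went from 24.4 ± 1.04 to 3.26 ± 0.452 CPM (log2 fold change −2.90, SE 0.136, adjusted p = 7.65e-05, edgeR's quasi-likelihood test, n = 3). The adhesion gene *Cdh15* fell by 0.95 (adjusted p = 0.00104), *Musk*, the receptor kinase of the neuromuscular junction, fell by 0.89 (adjusted p = 0.00156), and *Ckm*, the muscle creatine kinase, fell by 0.84 (adjusted p = 0.00159). The gene that rose was the receptor *Fgfr4*, at a low level of 2.13 ± 0.316 CPM in the normal group and 3.53 ± 0.0859 CPM in the DM1 group (0.73, adjusted p = 0.0284). The number lower was 14, 13, and 15 without normal library 1, normal library 3, or DM1 library 2, and the number higher was 1 without DM1 library 3 and 0 in the other 5 fits that left out 1 library.

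Of 22 MEF2 targets, 17 fell, none rose, and 5 did not pass, with a median of −0.60. One of them, *Nr4a1*, which was chosen after its values were seen, was higher at an unadjusted p = 0.0471 (log2 fold change 0.27), and DESeq2 called 0 higher. *Lmod3*, an actin filament protein, stood at 128 ± 5.01 CPM in the normal group and 60.7 ± 2.18 CPM in the DM1 group (log2 fold change −1.08, SE 0.0772, adjusted p = 0.000538, edgeR's quasi-likelihood test, n = 3). *Pgam2*, the muscle phosphoglycerate mutase, fell by 1.33 (adjusted p = 0.00114), the M-band gene *Myom1* fell by 0.93 (adjusted p = 0.00159), and *Stac3*, part of excitation-contraction coupling, fell by 0.74 (adjusted p = 0.00195). The number lower was 11 without normal library 1 and 9 without DM1 library 2.

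Of 10 tested genes of undifferentiated and reserve cells, 2 fell, 1 rose, and 7 did not pass, with a median of −0.17. *Heyl*, another Notch-responsive gene, went from 30.6, 39.0, and 38.1 CPM in the normal group to 11.2, 10.4, and 13.7 CPM in the DM1 group (log2 fold change −1.61, SE 0.143, adjusted p = 0.00109, edgeR's quasi-likelihood test). *Cd34*, a surface marker of quiescent myoblasts, rose (0.97, adjusted p = 0.00305), and the proteoglycan *Sdc4* fell by 0.38 (adjusted p = 0.0284). Of all tested genes, 7.13% were higher and 8.73% were lower. It had 1 lower without normal library 1 or 3 or DM1 library 2, without both libraries numbered 3, in the 3 limma fits on TPM, and with the length and GC trend removed under the replicate block, and it had 2 higher without DM1 library 2 and in DESeq2.

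**Figure D5:**
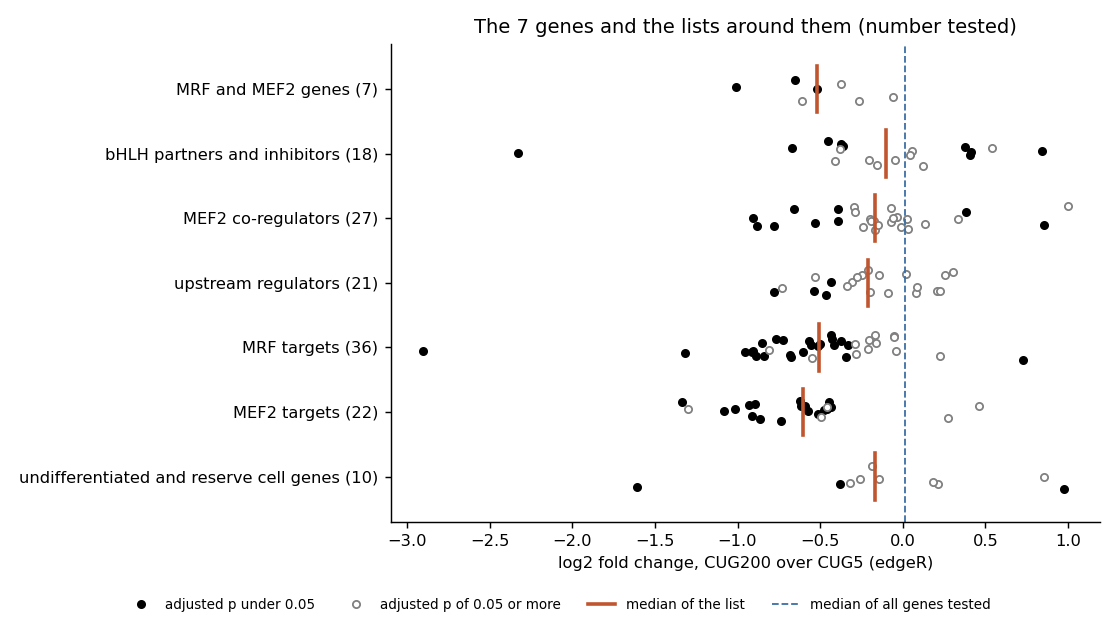
Log2 fold change in the DM1 (CUG200) over the normal (CUG5) group for each tested gene of the MRF and MEF2 families and of 6 lists around them, with filled points for an adjusted p-value under 0.05, a red bar for the median of each list, and a dashed line for the median of all tested genes. The medians of the MRF targets, at −0.51, and of the MEF2 targets, at −0.60, lie near the −0.52 of the 7 genes, and those of the other 4 lists lie between −0.21 and −0.10.

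Markers of cell types were read as a whole, since in bulk RNA fewer muscle cells and less RNA per muscle cell cannot be told apart. Of 10 skeletal muscle markers, which include *Myod1*, *Myf5*, and *Myog*, 8 fell and none rose. Over all tested genes, 8.73% were lower and 7.13% were higher. The other markers of this list, *Des*, *Cdh15*, *Myh3*, *Ckm*, *Acta1*, *Mymk*, and *Tnnt3*, are also counted among the MRF targets. The summed level of the 10 markers was 8689.6 to 10226 TPM in the normal group and 4421 to 6611 TPM in the DM1 group. Of 5 tested fibroblast markers 2 rose, *Dcn* (log2 fold change 0.45) and *Lum* (0.81), beside the 7.13% of all tested genes that were higher. The summed level of the fibroblast list was 1666 to 2325 against 2042 to 2653 TPM, while *Thy1* was at or near 0. The adipocyte markers *Fabp4* and *Adipoq* were at 0 in every library, as were the blood cell markers *Ptprc* and *Adgre1*, and the osteoblast markers *Sp7* and *Ibsp* were at or near 0. Of the other markers on these lists, *Pparg* ranged over 6.67 to 8.15 TPM in the normal group and 5.08 to 7.19 TPM in the DM1 group, *Runx2* over 14.9 to 16.9 and 12.4 to 21.3 TPM, and *Cebpa*, *Bglap*, and *Csf1r* were at most at 2.12 TPM. None of these 5 passed the test (adjusted p between 0.451 and 0.751, edgeR). The summed level was 7.24 to 9.33 against 6.005 to 8.20 TPM for the adipocyte list, 15.3 to 18.6 against 13.0 to 22.1 TPM for the osteoblast list, and 0.0295 to 0.190 against 0.0786 to 0.178 TPM for the blood cell list. The part of these shifts in the results for the 7 genes was not tested. The libraries held 61707889 to 80957325 counts, of which 8.90% to 13.5% were mitochondrial, and a floor of 3 counts was worth 0.0371 to 0.0486 CPM. Both libraries numbered 3 stood apart from the rest along the second principal component (22.9% of the variance). Without them, an alternative added after the data were seen, 3 members were again lower, and *Mef2c* had a log2 fold change of −0.66 (adjusted p = 0.0179, edgeR).

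The genes nearest to each member in their course over the 6 libraries were named by the root mean square difference of centred log2 CPM, among 12567 genes with at least 100 counts in every library. For *Myod1* they were *Ptprk* (0.0211) and *Supt6* (0.0224), for *Myf5* *Tab3* (0.0233) and *Bag1* (0.0247), and for *Myog* *Pgm5* (0.0367) was among them. The log2 fold change of *Pgm5* was −0.72, beside −0.65 for *Myog*. For *Mef2d* they were *Slc6a8* (0.0371) and *Inppl1* (0.0412), and for *Mef2a* *Gm32856* (0.0907) and *Zfand5* (0.0968). For *Myf6* they were *Sepsecs* (0.109) and *Gm36684* (0.194). The nearest genes of *Mef2c*, *Auts2* (0.211) and *Abcc4* (0.220), were farther away than those of the other members. These distances are a description over 6 libraries that share the group difference, with no test.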

How the data were processed

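The authors trimmed reads with Trim Galore, aligned them to GRCm38 with HISAT2, and quantified genes with StringTie. They deposited counts per gene for all libraries and, per library, coverage (signal), FPKM, and TPM. The deposited FPKM entered no test. Read length, strand setting, and tool versions are not given in the sources used here. A deposited count stood for 75 aligned bases, found from coverage and length, so whether it equals 1 read or fragment cannot be told here. With counts divided by 4, 3 members were again lower. Counts were filtered with filterByExpr (minimum count 10), scaled by TMM, and tested with edgeR 4.0.16 (R 4.3.3; quasi-likelihood, robust, no covariate) with Benjamini-Hochberg adjustment over 19005 genes. Alternatives used DESeq2 1.42.0 and limma 3.58.1 on log2(TPM + 1) and log2(TPM + 0.1). Implied transcript lengths lay within 1% of the annotated length for 98.4% to 98.6% of single-transcript genes. The tests were tested on simulated data. Members, lists, and tests were chosen with earlier results of these data known. Named genes were the 7 members, *Mef2b*, up to 4 genes per list and direction with the smallest p-value among those past the threshold, and 2 nearest genes per member. Of the genes this rule names, 2 are not reported here.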

Additional observations from a re-analysis of the deposited data

How the results depend on the processing

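Over 21 alternatives, *Myog* passed in all, *Myod1* in 19, and *Mef2c* in 15, and *Myf5*, *Myf6*, and *Mef2d* in none, while *Mef2a* passed only without normal library 1. *Mef2c* was at −1.01 and did not pass with every gene of at least 1 count (adjusted p = 0.112, edgeR) or with the length and GC trend removed (adjusted p = 0.0635). The sign of *Mef2d* turned with that trend removed (0.01) and with the trend removed under the replicate block (0.00). With 1 library left out, the log2 fold change was between −0.63 and −0.44 for *Myod1*, −0.85 and −0.32 for *Myf6*, −0.58 and −0.23 for *Mef2a*, −1.20 and −0.62 for *Mef2c*, and −0.21 and 0.08 for *Mef2d*. Members called lower then numbered 1 to 4, MRF targets lower 13 to 25 and higher 0 to 1, and MEF2 targets lower 9 to 16. All genes called higher numbered 543 to 1678 and lower 485 to 2111. Limma called 427 higher and 816 lower on log2(TPM + 1), 434 and 850 on log2(TPM + 0.1), and 1049 lower on centred values, and 966 were lower without both libraries numbered 3. The single higher MRF target numbered 0 in both uncentred TPM fits and without both libraries numbered 3. The cause of these changes was not tested. The shared numbers were not taken as pairs, since deviations of libraries with the same number correlated at only 0.0675, 0.0222, and 0.0263, although both libraries numbered 3 lay together on the second principal component (10.9 and 10.8), and normal library 3 was nearer to DM1 library 2 (0.0451). Under the replicate block, 3 members were lower, *Mef2c* was at −0.94, and 1326 genes were higher and 1497 lower.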
